A study of Sus scrofa with 3 samples.

Results

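The B cell receptor and surface genes MS4A1, CD79A, CD79B, BLK, BANK1, CD22, FCRLA, JCHAIN and MZB1 were examined in 3 pig libraries. The genes were listed by name, all 9 had a row in the count files, and they are 9 of the 26466 gene symbols measured. Each library came from a different cell population: mesenchymal stem cells derived from bone marrow (BM-MSC), cells that the submitters call bone marrow attached cells (BMAC), and peripheral blood mononuclear cells (PBMC). Strain, age, treatment, culture time and the animal behind each library are given nowhere in the labels. The libraries were QuantSeq libraries, which prime on the poly(A) tail and read near the 3' end of a transcript, and they held 17069344 counts in BM-MSC, 15122997 in BMAC and 15445903 in PBMC. Each group is 1 library, so no difference below has a replicate check and no p-value is given. Intervals are 95% intervals and cover counting error only.

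A B cell recognises antigen through a membrane immunoglobulin that cannot signal by itself. Its membrane partners CD79A and CD79B carry tyrosine motifs in their cytoplasmic tails. Src family kinases such as BLK and LYN phosphorylate these motifs, after which SYK, BLNK, BTK and PLCG2 pass the signal on. CD22 restrains that signal by recruiting phosphatases, and BANK1 is a scaffold that links it to kinases and calcium release. When a B cell turns into an antibody-secreting cell, JCHAIN joins secreted IgM and IgA into polymers and MZB1, a chaperone of the endoplasmic reticulum, helps in their assembly. PBMC contain circulating B cells, whereas mesenchymal stem cells are defined in part by lacking B cell surface proteins.

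In counts per 1000000 counts of the library (CPM), the 9 genes together stood at 2.46 CPM in BM-MSC, 2.91 in BMAC and 1550 in PBMC, from 42, 44 and 23893 counts. A gene was called different when its log2 ratio, after adding 1 CPM to both levels, was at least 2 in size (4-fold) and its higher library held at least 10 CPM. By this rule 7 of the 9 genes were lower in BM-MSC than in PBMC, against 15.7% of the 11428 genes measured in that pair. The same 7 genes, MS4A1, CD79B, BLK, BANK1, CD22, FCRLA and JCHAIN, were lower in BMAC than in PBMC, against 12.8% of 11371 genes. None of the 9 was higher in BM-MSC or BMAC by the rule. MZB1 and CD79A stayed under 10 CPM in every library and could not be called. The 7 genes reached 10 CPM through PBMC alone, and a gene that passes only there is the more likely to be called lower. Among the 9315 genes at 10 CPM or more in PBMC, 19.3% were lower in BM-MSC and 15.6% were lower in BMAC. In bulk RNA a smaller share of B cells and less RNA per B cell cannot be told apart.

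**Figure D1:**
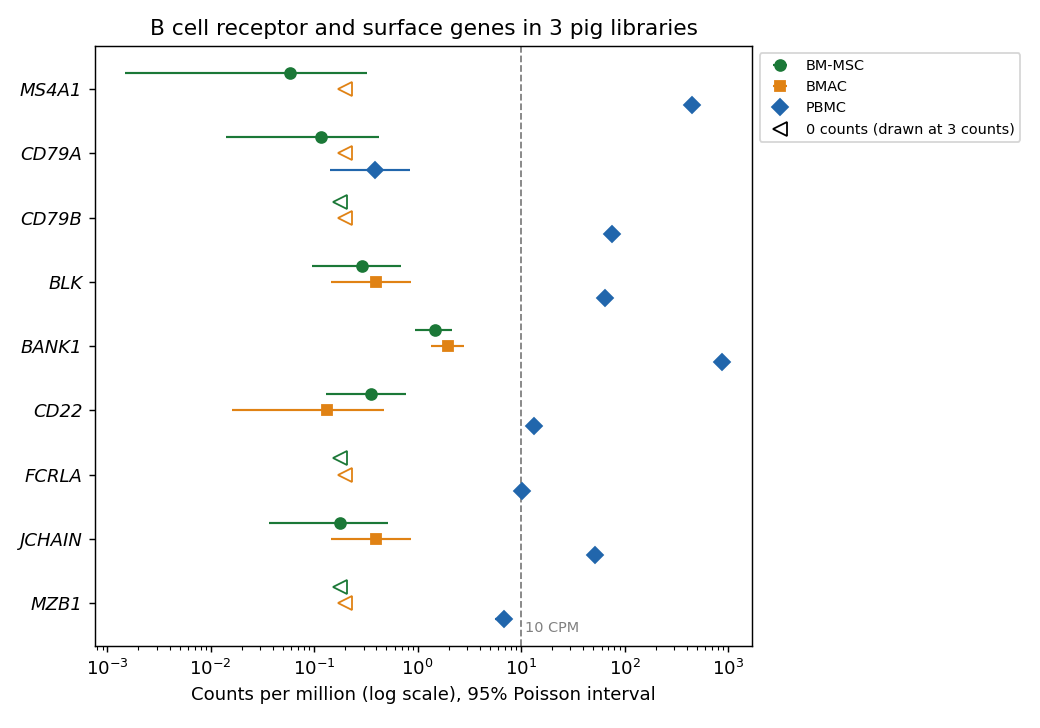
Level of each gene in BM-MSC (green circles), BMAC (orange squares) and PBMC (blue diamonds) in CPM on a log scale, with 95% Poisson intervals for counting error. Open triangles mark 0 counts and are drawn at the level of 3 counts. The dashed line is 10 CPM, which 7 genes pass in PBMC and 0 genes pass in BM-MSC or BMAC.

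The surface antigen MS4A1 encodes CD20, the protein by which B cells are most often counted and depleted. It had 1 count in BM-MSC (0.0586 CPM), 0 counts in BMAC and 7011 counts in PBMC (454 CPM). Only PBMC were above the level that 3 counts would give, which is 0.176 CPM in BM-MSC, 0.198 in BMAC and 0.194 in PBMC. Ordered by log2 ratio from the most negative, MS4A1 was number 12 of the 9315 genes at 10 CPM in PBMC when BM-MSC were compared with PBMC, and number 9 when BMAC were. With 1 and 0 marrow counts and 1 CPM added to both levels, its place in this order mostly reflects its PBMC level. In the RefSeq annotation of Sscrofa11.1 its row overlaps that of MS4A4A, another gene of the MS4A family, which had 20 counts in BM-MSC, 14 in BMAC and 836 in PBMC. Reads of these overlapping rows could not be separated, but the PBMC count of MS4A4A was 11.9% of that of MS4A1.

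The signalling chains CD79A and CD79B form a heterodimer, so both are needed for a working receptor, yet their counts were far apart. CD79B had 0 counts in BM-MSC, 0 in BMAC and 1181 in PBMC (76.5 CPM), at least 435-fold lower in BM-MSC and at least 385-fold lower in BMAC than in PBMC. CD79A had 2 counts in BM-MSC (0.117 CPM), 0 in BMAC and 6 in PBMC (0.388 CPM). Its PBMC level had an interval of 0.143 to 0.845 CPM. Its ratio of PBMC to BM-MSC was 3.32 with an interval of 0.593 to 33.6, so that no difference between these was detectable at this depth. In BMAC its 0 counts left it at no more than 86.7% of its PBMC level by the exact interval. No row of the reference overlaps that of CD79A. The next rows on either side were ARHGEF1, with 17.1 CPM in BM-MSC, 12.3 in BMAC and 35 in PBMC, and RPS19, with 845, 1050 and 976 CPM in the same order. How well the annotated 3' end of CD79A matches the transcripts of pig B cells was not tested.

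The kinase gene BLK encodes a Src family kinase found mainly in B cells. It had 5 counts in BM-MSC (0.293 CPM), 6 in BMAC (0.397 CPM) and 992 in PBMC (64.2 CPM). This put it 219-fold lower in BM-MSC (93.6 to 677) and 162-fold lower in BMAC (74.1 to 442) than in PBMC. The scaffold BANK1 had 25 counts in BM-MSC (1.46 CPM), 30 in BMAC (1.98 CPM) and 13427 in PBMC (869 CPM), and was 594-fold lower in BM-MSC (402 to 917) and 438-fold lower in BMAC (307 to 650) than in PBMC. It was the 1 gene of the 9 with more than 6 counts in either marrow library, and the 1 whose level there exceeded 1 CPM.

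CD22, a sialic acid-binding lectin that dampens receptor signalling, had 6 counts in BM-MSC (0.352 CPM), 2 in BMAC (0.132 CPM) and 206 in PBMC (13.3 CPM). It was 37.9-fold lower in BM-MSC (17.1 to 105) and 101-fold lower in BMAC (27.6 to 838) than in PBMC. FCRLA, an Fc receptor-like protein that stays inside the B cell, had 0 counts in BM-MSC, 0 in BMAC and 158 in PBMC (10.2 CPM). That is at least 58.2-fold lower in BM-MSC and at least 51.6-fold lower in BMAC than in PBMC. FCRLA was the gene closest to the floor of 10 CPM, and with TMM or median-of-ratios scaling it fell under the floor and was no longer called.

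The antibody polymer chain JCHAIN had 3 counts in BM-MSC (0.176 CPM), 6 in BMAC (0.397 CPM) and 807 in PBMC (52.2 CPM). It was 297-fold lower in BM-MSC (101 to 1440) and 132-fold lower in BMAC (60.2 to 360) than in PBMC. MZB1 had 0 counts in BM-MSC, 0 in BMAC and 105 in PBMC (6.8 CPM), a level under the floor but at least 38.7-fold above BM-MSC and at least 34.3-fold above BMAC. The row of MZB1 overlaps the unnamed long non-coding row LOC110259503, which had exactly the same 0, 0 and 105 counts. Identical counts of at least 50 over all 3 libraries were found for 4 of 5662 pairs of overlapping rows. Whether these 105 reads came from MZB1 or from LOC110259503 could not be told apart.

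**Figure D2:**
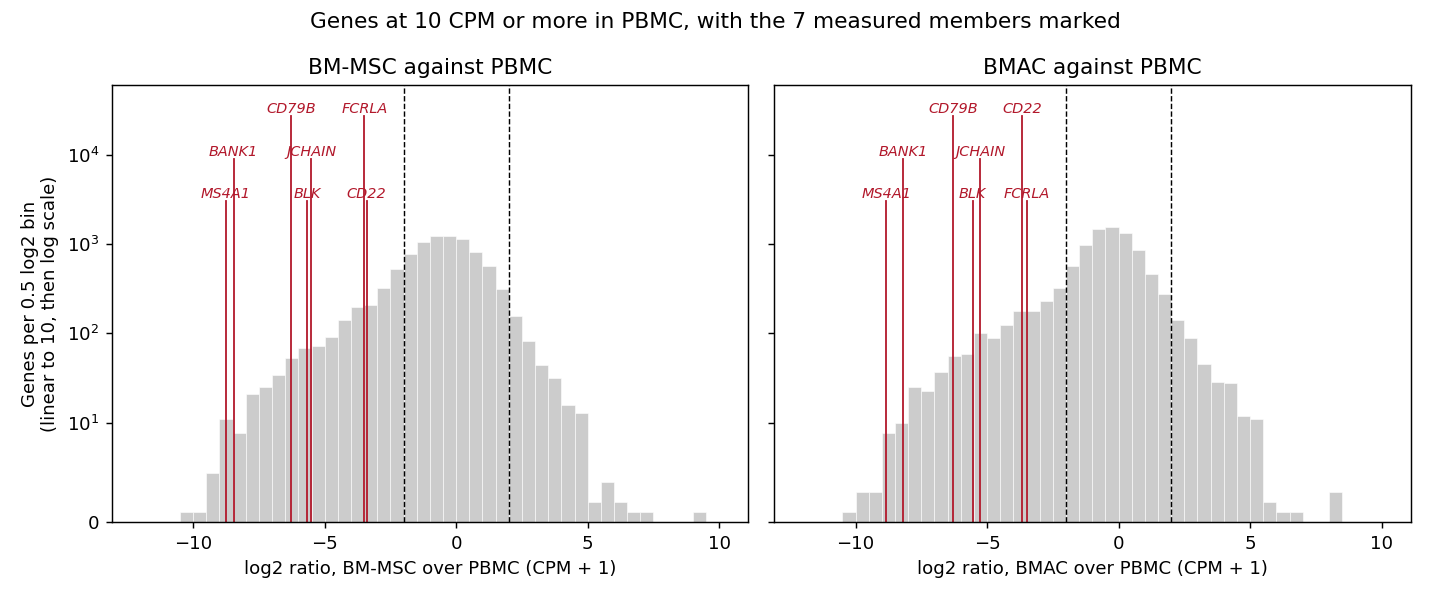
Grey bars count the genes at 10 CPM or more in PBMC by their log2 ratio of BM-MSC over PBMC (left) and BMAC over PBMC (right), in bins of 0.5, with a vertical axis that is linear up to 10 genes and logarithmic above. Red lines mark the 7 measured genes, which run from -8.75 for MS4A1 to -3.41 for CD22 on the left, and from -8.83 for MS4A1 to -3.49 for FCRLA on the right; dashed lines mark a log2 ratio of 2 in size.

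The 7 measured genes had a median log2 ratio of -5.66 in BM-MSC against PBMC, where the median was -0.16 for all 11428 measured genes and -0.58 for those at 10 CPM in PBMC. In BMAC against PBMC their median was -5.55, against -0.12 for all 11371 genes and -0.44 for those at 10 CPM in PBMC. Both comparisons share the PBMC library. With TMM and with median-of-ratios scaling, all genes measured in BM-MSC against PBMC had medians of 0.23 and 0.26, and 58.5% and 59.5% of the called genes were higher in BM-MSC, against 47.6% with library totals. In BMAC against PBMC the medians of all genes were then 0.21 and 0.22. The 6 called genes other than FCRLA stayed lower by the rule in both comparisons under both scalings.

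How much of the PBMC level was left in the marrow libraries differed between genes. BANK1 stood at 0.168% of its PBMC level in BM-MSC (0.109 to 0.249%) and at 0.228% in BMAC (0.154 to 0.326%). MS4A1 stood at 0.0129% in BM-MSC (0.000327 to 0.0719%) and had 0 counts in BMAC, where its interval reached up to 0.0538%. The intervals of BANK1 and MS4A1 did not overlap in BM-MSC or in BMAC.

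BLK was left at 0.456% of its PBMC level in BM-MSC (0.148 to 1.07%) and 0.618% in BMAC (0.226 to 1.35%), and JCHAIN at 0.336% (0.0692 to 0.987%) and 0.759% (0.278 to 1.66%). The highest value among the 7 measured genes was that of CD22, at 2.64% in BM-MSC (0.956 to 5.84%), with 0.992% in BMAC (0.119 to 3.63%). For CD79B the level of 3 counts would be 0.23% in BM-MSC and 0.259% in BMAC, so its 0 counts do not set it apart from BANK1.

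PTPRC, the gene of the common leukocyte antigen CD45, was left at 0.0386% in BM-MSC (0.0232 to 0.0603%) and 0.0642% in BMAC (0.0427 to 0.0928%). LAPTM5, a lysosomal membrane protein of blood cells, was left at 0.0179% and 0.0202%, from 3 counts in each. In both marrow libraries the interval of BANK1 lay above those of PTPRC and LAPTM5. It overlapped those of CD53 in both, at 0.216% in BM-MSC (0.108 to 0.386%) and 0.0886% in BMAC (0.0241 to 0.227%). CORO1A, an actin-binding protein of leukocytes, was left at 0.133% in BM-MSC (0.0606 to 0.252%), which overlaps BANK1. It had 0 counts in BMAC, where its interval reached up to 0.0613%. ITGB2, the shared chain of the leukocyte integrins, was left at 4.07% in BM-MSC (3.3 to 4.98%) and 6.55% in BMAC (5.48 to 7.76%), more than BANK1.

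**Figure D3:**
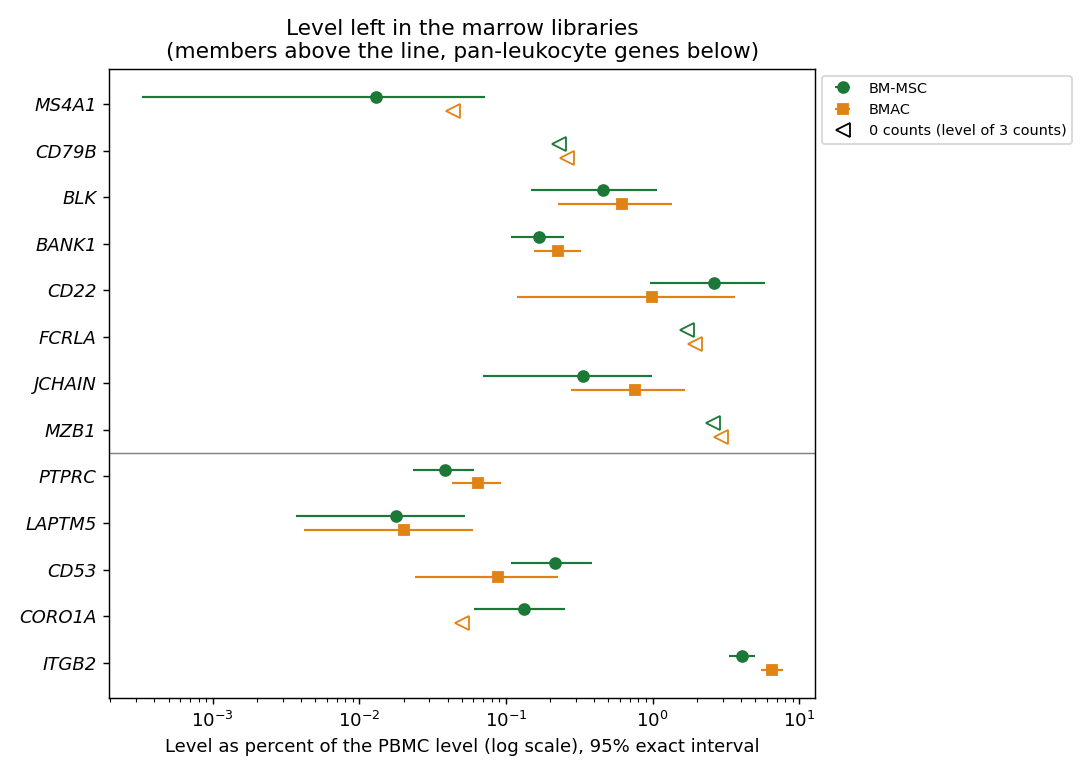
Level in BM-MSC (green circles) and BMAC (orange squares) as a percentage of the level of the same gene in PBMC, on a log scale with 95% exact intervals for counting error; CD79A, with 6 counts in PBMC, is not drawn. Open triangles are genes with 0 counts at the level of 3 counts. BANK1 lies at 0.168% and 0.228%, to the right of MS4A1, PTPRC and LAPTM5 and to the left of BLK, JCHAIN, CD22 and ITGB2. Its interval overlaps those of CD53, BLK and JCHAIN in both libraries, that of CORO1A in BM-MSC and that of CD22 in BMAC.

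Seen as shares of the 9 genes' own counts, MS4A1 made up 2.38% in BM-MSC (0.0603 to 12.6%) and 29.3% in PBMC (28.8 to 29.9%). In BMAC it had 0 of 44 counts, which allows a share of up to 8.04%. The interval for BM-MSC and the limit for BMAC lay under the PBMC share. BANK1 made up 59.5% in BM-MSC (43.3 to 74.4%), 68.2% in BMAC (52.4 to 81.4%) and 56.2% in PBMC (55.6 to 56.8%), intervals that overlap. BLK made up 11.9% in BM-MSC (3.98 to 25.6%), 13.6% in BMAC (5.17 to 27.4%) and 4.15% in PBMC (3.9 to 4.41%). CD22 made up 14.3% in BM-MSC (5.43 to 28.5%), 4.55% in BMAC (0.555 to 15.5%) and 0.862% in PBMC (0.749 to 0.988%). These are Clopper-Pearson intervals on 42, 44 and 23893 counts. In BM-MSC the interval for MS4A1 lay under its PBMC interval, and that for CD22, from 6 counts, lay above. In BMAC the intervals for BLK and JCHAIN, from 6 counts each, lay above those in PBMC. JCHAIN made up 13.6% in BMAC (5.17 to 27.4%) and 3.38% in PBMC (3.15 to 3.61%). The intervals were not corrected for the number of genes compared. CD79A, with 2 counts in BM-MSC and 6 in PBMC, also took a higher share in BM-MSC (4.76%, 0.582 to 16.2%, against 0.0251%, 0.00922 to 0.0547%). Those 2 counts lie under the level of 3 counts, and the CPM of CD79A showed no detectable difference between BM-MSC and PBMC. Shares are parts of 1 total, so a lower share of MS4A1 goes with higher shares of other genes. The intervals of CD22 overlap between BMAC and PBMC.

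BM-MSC and BMAC could not be told apart by these genes. No member reached 10 CPM in either library, so 0 of 9 were measured, while 6.11% of the 10303 genes measured in that pair were called in either direction. BANK1 was 1.35-fold lower in BM-MSC than in BMAC with an interval of 0.77 to 2.4, BLK was 1.35-fold lower with an interval of 0.344 to 5.61, and JCHAIN was 2.26-fold lower with an interval of 0.482 to 13.9. CD22 was 2.66-fold higher in BM-MSC with an interval of 0.475 to 26.9. Each interval includes 1, and a difference of the size of its bounds would have been missed at this depth. The other 5 genes had at most 2 counts in either library and are given no fold.

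The antigen-binding part of the receptor could not be followed by name, since no row carries a symbol that starts with IGH, IGK or IGL apart from the unrelated IGHMBP2. RefSeq types 16 of the rows as constant regions of antigen receptors without saying whether they belong to B or T cell receptors. Together they stood at 35.5 CPM in BM-MSC, 43 in BMAC and 3560 in PBMC. Of the 16 rows, 14 reached 10 CPM in PBMC, and all 14 were lower by the rule in BM-MSC and in BMAC. The row with the most PBMC counts, LOC102165485, stood at 2.52 CPM in BM-MSC, 0.992 in BMAC and 1560 in PBMC. A single row, LOC102158332, held 506 of the 606 constant region counts in BM-MSC and 607 of the 650 in BMAC. It overlaps several other rows, among them PRAME, so its value is uncertain. LOC102158411 and LOC102158125, at 136 and 83.1 CPM in PBMC, overlap each other, and LOC102167789, at 147 CPM in PBMC, overlaps PRSS2. Whether the PBMC sum counts some reads more than 1 time was not tested. The 121 rows typed as variable segments held 115 counts in BM-MSC, 163 in BMAC and 3993 in PBMC.

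The signalling genes downstream of the receptor were mostly lower in the marrow libraries, though many of them serve other leukocytes too. Of 29 measured genes of a list of antigen receptor signalling, 23 were lower in BM-MSC (median log2 ratio -3.95) and 19 were lower in BMAC (median -3.38) than in PBMC, and 0 were higher in either. Of the 29, 20 reached 10 CPM through PBMC alone in the BM-MSC comparison and 16 in the BMAC comparison, which makes a lower call the more likely, and 19.3% and 15.6% of all genes at 10 CPM in PBMC were lower. The phosphatase INPP5D, which shuts off phosphoinositide signals, stood at 0.117 CPM in BM-MSC, 0.132 in BMAC and 661 in PBMC. The kinase PRKCB, which leads to NF-kB in B cells, stood at 3.4, 5.36 and 1340 CPM in the same order. SYK, the kinase that docks on the CD79 tyrosines, stood at 3.63 CPM in BM-MSC, 12.6 in BMAC and 567 in PBMC. The adaptor DAPP1 stood at 2.23 CPM in BM-MSC, 1.12 in BMAC and 257 in PBMC.

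Some signalling genes were not lower. CD81, a tetraspanin made by B cells and by many other cells, stood at 289 CPM in BM-MSC, 254 in BMAC and 114 in PBMC, under 4-fold. The transcription factor gene NFATC2 was 8.15-fold lower in BM-MSC (7.03 to 9.5) than in PBMC, but stood at 91.1 CPM in BMAC and 95.5 CPM in PBMC, a ratio that changed sign with TMM and median-of-ratios scaling. The adaptors SH3BP2 and BCL10 lay within 2-fold in both comparisons. SH3BP2 stood at 9.78 CPM in BM-MSC, 8.99 in BMAC and 10.6 in PBMC, and BCL10 at 11.3 CPM in BM-MSC, 15.7 in BMAC and 20.4 in PBMC. The ratio of SH3BP2 turned positive in both comparisons under those scalings.

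Inhibitory and Fc receptor genes were lower for 7 of 8 measured list members in both comparisons (median -4.48 in BM-MSC and -4.62 in BMAC against PBMC). Through PBMC alone, 6 of the 8 were measured in the BM-MSC comparison and 7 in the BMAC comparison, and the shares over all genes are the 19.3% and 15.6% above. FCRL5, an Fc receptor-like protein of mature B cells, stood at 0.469 CPM in BM-MSC, 0.397 in BMAC and 177 in PBMC. FCGR2B, the inhibitory receptor for IgG, stood at 0.469, 0.198 and 38.1 CPM, and CD5, which T cells make as well, at 0.469, 0.264 and 110 CPM. FCMR, the IgM receptor, stood at 0.117, 0.0661 and 101 CPM, but its row overlaps IL24, whose PBMC count was 98.8% of that of FCMR. The exception was CD72, at 18 CPM in BM-MSC, 7.54 in BMAC and 11.2 in PBMC. CD72 overlaps TESK1, which stood at 21.7, 9.92 and 9.45 CPM, so the value of CD72 is uncertain.

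Of 24 measured genes of other B cell surface proteins, 20 were lower in BM-MSC (median -3.94) and 20 in BMAC (median -4.35) than in PBMC, and 0 were higher. Here 21 and 20 of the 24 were measured through PBMC alone, beside the same 19.3% and 15.6% of all genes at 10 CPM in PBMC. CD48, CD69 and CCR7, an adhesion partner, an activation marker and a lymph node homing receptor that T cells share, had 0 counts in both marrow libraries and stood at 209, 157 and 125 CPM in PBMC. CD53, a leukocyte tetraspanin, stood at 0.644 CPM in BM-MSC, 0.264 in BMAC and 299 in PBMC. CXCR5, the follicle homing receptor, was 1.7-fold lower in BM-MSC (1.48 to 1.96) and 1.3-fold lower in BMAC (1.13 to 1.48), but overlaps BCL9L, which stood at 24.1 CPM in BM-MSC, 30.5 in BMAC and 27.8 in PBMC. ICOSLG and CD40, ligand and receptor in T cell help, were 2.4-fold and 3.69-fold lower in BM-MSC and 1.52-fold and 2.03-fold lower in BMAC, short of the rule. CD86, a costimulatory ligand, stood at 98.7 CPM in BM-MSC, 7.01 in BMAC and 226 in PBMC.

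Among B cell transcription factors, 15 of 19 measured genes were lower and 2 were higher in BM-MSC than in PBMC (median -5.6). The counts were the same in BMAC (median -4.76). In each comparison 12 of the 19 were measured through PBMC alone. Of all genes at 10 CPM in PBMC, 19.3% were lower in BM-MSC and 15.6% in BMAC. Of all measured genes, 1630 of 11428 were higher in BM-MSC and 1591 of 11371 in BMAC. PAX5, the factor that fixes B cell identity, stood at 2.75 CPM in BM-MSC, 1.52 in BMAC and 584 in PBMC. AFF3, IKZF1 and POU2F2 were 690-fold, 437-fold and 605-fold lower in BM-MSC, and 393-fold, 990-fold and 492-fold lower in BMAC, than in PBMC. The 2 higher genes were ID3 and BCL6, which also act outside B cells. ID3, an inhibitor of E proteins, stood at 898 CPM in BM-MSC, 444 in BMAC and 9.45 in PBMC. BCL6 was 4.26-fold higher in BM-MSC (3.63 to 5.02) and 7.6-fold higher in BMAC (6.51 to 8.91), and in BM-MSC it was no longer called with a pseudocount of 5 CPM. TCF3, which overlaps LOC100524239, stood at 82.4 CPM in BM-MSC, 54.9 in BMAC and 70.1 in PBMC. FOXO1 was 2.15-fold lower in BM-MSC (2.01 to 2.29) and 5.38-fold lower in BMAC (4.89 to 5.93) than in PBMC.

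**Figure D4:**
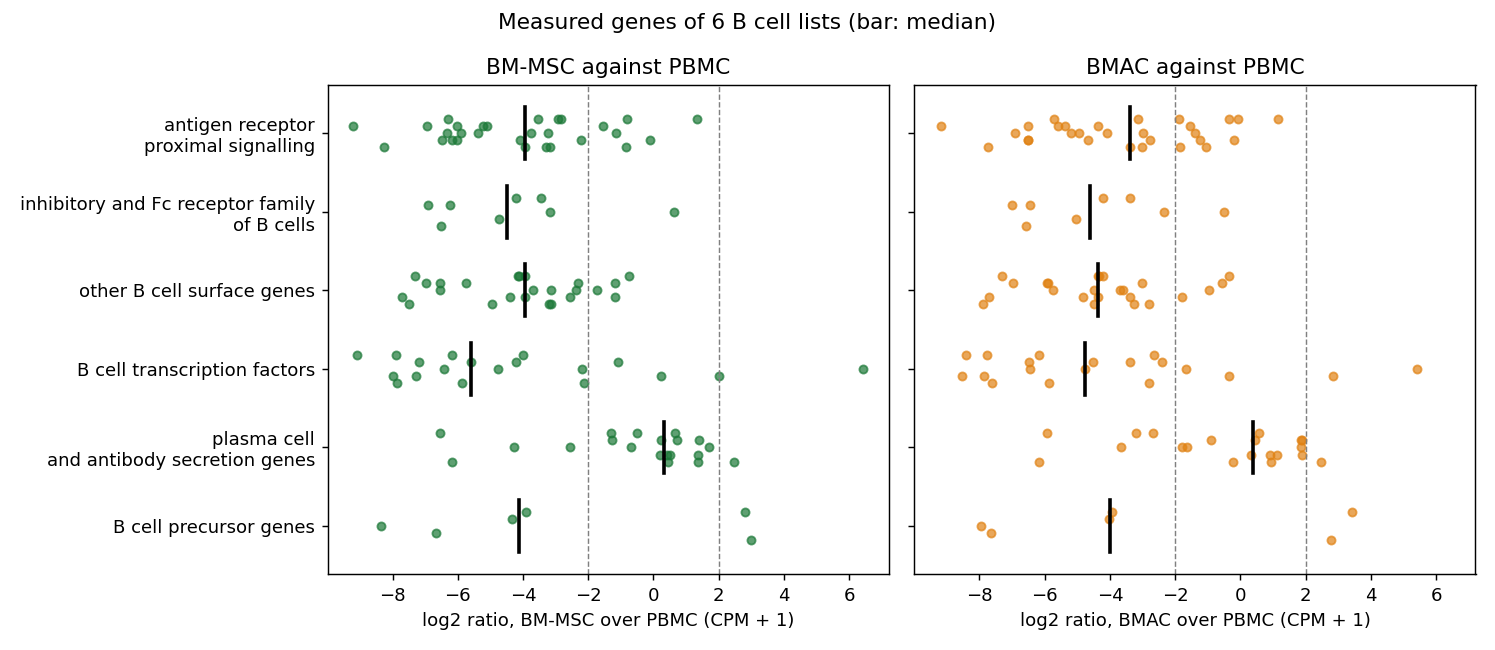
Log2 ratios of BM-MSC over PBMC (left, green) and BMAC over PBMC (right, orange) for the measured genes of 6 lists, with the median of each list as a black bar and dashed lines at a log2 ratio of 2 in size. The medians lie between -5.6 and -3.38 for 5 lists, and at 0.33 and 0.38 for plasma cell and antibody secretion genes.

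Genes of plasma cells and antibody secretion went in both directions. Of 20 measured, 4 were lower and 1 was higher in BM-MSC than in PBMC (median 0.33), and 5 were lower and 1 was higher in BMAC (median 0.38). Over all genes, 15.7% of 11428 were lower in BM-MSC and 12.8% of 11371 in BMAC, and 1630 and 1591 were higher. Of the 20 list genes, 5 were measured through PBMC alone in the BM-MSC comparison and 6 in the BMAC comparison. Among the lower genes, CD38 stood at 0.469 CPM in BM-MSC, 1.26 in BMAC and 135 in PBMC, IRF4 had 0 counts in both marrow libraries and 71.9 CPM in PBMC, and PRDM1, the factor that drives plasma cell formation, stood at 0.352, 1.06 and 25 CPM. SEL1L3 was lower by the rule in BMAC alone, at 1.32 CPM, with 7.62 CPM in BM-MSC and 20.3 CPM in PBMC. The higher gene was XBP1, a factor of the secretory pathway in many cells, at 66.4 CPM in BM-MSC, 66.1 in BMAC and 11.2 in PBMC, 5.93-fold higher in BM-MSC (5.05 to 7) and 5.9-fold higher in BMAC (5.02 to 6.98) than in PBMC. SDC1, SSR4 and HERPUD1 were higher short of the rule, with SDC1 at 23.3 CPM in BM-MSC, 34.2 in BMAC and 8.42 in PBMC, SSR4 at 131 CPM in BM-MSC, 183 in BMAC and 48.9 in PBMC, and HERPUD1 at 153 CPM in BM-MSC, 170 in BMAC and 45.8 in PBMC. With TMM or median-of-ratios scaling, HERPUD1 passed the rule in both comparisons and SDC1 and SSR4 in BMAC, as did FKBP11 in BMAC, a gene chosen after its values were seen, at 35.6 CPM in BM-MSC, 79.2 in BMAC and 21.2 in PBMC. This brought the higher genes, XBP1 included, to 2 in BM-MSC and 5 in BMAC.

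Genes of B cell precursors were sparse. Of 13 with a row, 6 were measured in each comparison, of which 4 were lower and 2 were higher in both BM-MSC and BMAC than in PBMC. The 4 lower genes were measured through PBMC alone, beside the same 19.3% and 15.6% of all genes at 10 CPM in PBMC that were lower. Of all measured genes, 1630 of 11428 were higher in BM-MSC and 1591 of 11371 in BMAC. VPREB3, which belongs to the surrogate light chain family, had 0 counts in both marrow libraries and stood at 14.2 CPM in PBMC, and FLT3 stood at 0.879, 1.32 and 37.2 CPM. The other 2 lower genes, IL7R and LEF1, are also T cell genes. IL7R, which overlaps LOC106508147, stood at 0.0586 CPM in BM-MSC, 0.397 in BMAC and 346 in PBMC, and LEF1 at 6.15 CPM in BM-MSC, 2.58 in BMAC and 720 in PBMC. SOX4 and ERG, which many cells outside blood make, were both higher, SOX4 by 8.23-fold in BM-MSC (7.34 to 9.24) and 7.17-fold in BMAC (6.39 to 8.07), and ERG by 7.96-fold in BM-MSC (6.48 to 9.87) and 12.1-fold in BMAC (9.92 to 15).

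Profiles most like those of the members were sought among 16623 other named genes by the Euclidean distance of log2(CPM + 1) over the 3 libraries. MS4A1 lay nearest to SLA-DRA, an MHC class II chain (distance 0.11), then to GIMAP1 (0.242) and CORO1A (0.562). CD79B lay nearest to IRF4 (0.087) and GZMH (0.0915), BLK to CD4 (0.167) and UBASH3A (0.282), and BANK1 to IKZF3 (0.484) and DOCK2 (0.692). JCHAIN lay nearest to THEMIS2 (0.151), CD22 to IL3RA (0.261) and FCRLA to CLRN3 and S100A8 (0.00829 each). Genes known from T cells, cytotoxic cells and myeloid cells are among these neighbours, and with 3 libraries such likeness does not mark B cells.

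Other blood cells moved with the 9 genes. Summed markers stood at 21.9 CPM in BM-MSC, 17.7 in BMAC and 964 in PBMC for T cells, at 1.76, 0.727 and 259 CPM for NK cells, at 9.37, 20.5 and 571 CPM for monocytes and at 4.16, 4.1 and 88.6 CPM for conventional dendritic cells. Of the measured markers, 8 of 8, 8 of 8, 7 of 8 and 3 of 3 were lower in both marrow libraries, with CD14 the exception. All but 1 T cell marker, and in BMAC 1 monocyte marker, were measured through PBMC alone, so these counts too stand beside the 19.3% and 15.6% of all genes at 10 CPM in PBMC. Markers of plasmacytoid dendritic cells, which in humans also make BLK, JCHAIN and MZB1, stood at 340 CPM in BM-MSC, 623 in BMAC and 862 in PBMC, and 4 of 8 measured were lower in both. These 4 were measured through PBMC alone, beside the same 19.3% and 15.6%, and SPIB, at 0, 0 and 26.1 CPM, was among them. The other 4 measured, TCF4, RUNX2, NRP1 and TLR9, were not lower by the rule in either. They stood at 168, 78.6, 54.1 and 26.8 CPM in BM-MSC and at 247, 196, 147 and 19.5 in BMAC, most of the marrow sums. In PBMC they stood at 345, 261, 55.5 and 38.7 CPM. RUNX2 overlaps SUPT3H and TLR9 overlaps TWF2. PTCRA, under 10 CPM in every library, had 0, 0 and 5 counts. The part of plasmacytoid dendritic cells in the levels of BLK, JCHAIN and MZB1 was not tested. Stromal markers went the other way, at 13500 CPM in BM-MSC, 11600 in BMAC and 60 in PBMC, and the 5 pan-leukocyte genes stood at 8.26, 11.6 and 4700 CPM. Stromal and leukocyte markers thus did not go against the labels of the libraries.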

How the data were processed

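RNA was extracted with Trizol and 3' end libraries were made with a Lexogen QuantSeq kit, per the labels' protocols. Each deposited file holds raw counts per annotation row, made by the authors with Bowtie2 and bedtools, which the submitters' processing notes name without version or role. Genome build, annotation, strand setting and treatment of multi-mapping reads are stated neither in the labels nor in the files. The 26965 rows were summed to 26466 symbols, all of them in the RefSeq table of Sscrofa11.1, which was used for names, row types and overlaps only. CPM were computed from library totals (15122997 to 17069344 counts). With 1 library per group no test was run. A gene was called at a log2 ratio of 2 in size after a pseudocount of 1 CPM, with at least 10 CPM and 10 counts in the higher library. A 0 was taken as 3 counts for bounds. Folds have exact conditional, levels Poisson and shares Clopper-Pearson intervals (SciPy 1.17.1). The calling rule was checked on simulated Poisson counts in which some genes were raised by known folds. That check held no variation between replicate libraries and no decreases to a few counts, so it does not cover these. TMM (edgeR 4.0.16) and median-of-ratios (DESeq2 1.42.0) factors served as alternatives.

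Named genes were the 9 members, in each list up to 4 genes by size of ratio and up to 4 that were not lower in both marrow libraries, and the 3 nearest profiles of each member, of which the nearest 1 to 3 are given. For lists of other cell types sums and counts are given, and single genes are named for monocytes, plasmacytoid dendritic cells, stromal cells and pan-leukocyte genes. The 9 genes and the lists were chosen with earlier results of these data known. No protein or promoter sequences were used here.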

Additional observations from a re-analysis of the deposited data

How the results depend on the processing

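The count of called members lay between 5 and 8 under 11 other settings in BM-MSC against PBMC and in BMAC against PBMC, against 7 as reported, and it was 0 in BM-MSC against BMAC under each of those settings. Leaving out members that overlap a row with at least 25% of their count, an alternative chosen after seeing the data, concerned MZB1 and left 7. FCRLA was lost with TMM and median-of-ratios factors, FCRLA and CD22 with a pseudocount of 5 CPM or a floor of 50 CPM, and MZB1 was gained with a floor of 1 CPM or none. No called member changed sign under these settings. Over all genes, a floor of 50 CPM, a rule of log2 1 and a rule of log2 3 gave 1912, 6643 and 1917 calls in BM-MSC against PBMC (3424 as reported), 1718, 5819 and 1876 in BMAC against PBMC (3042), and 298, 1985 and 274 in BM-MSC against BMAC (630), where a pseudocount of 5 CPM gave 374. These follow from the rules' own construction. List counts moved too. Of other B cell surface genes, a floor of 50 CPM left 10 lower in BM-MSC and 11 in BMAC than in PBMC. A floor of 1 CPM or none made 1 of them higher in BM-MSC. Of inhibitory and Fc receptor genes, a floor of 50 CPM left 4 lower in each. Counts of other lists also moved under some settings. No paired analysis was possible because each group is 1 library. Depth limits the marrow levels: most members had 0 to 6 counts there.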
